A study of Mus musculus with 9 samples.

Results

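Circular RNAs (circRNAs) that shared one of their back-splice ends with another circle were examined in mouse liver. A position-named circRNA probe was taken as a member when its circle spanned at least 1000 bp, and less than a set upper limit, in genome build mm9 and had exactly the same start, or exactly the same end, as at least 1 other position-named circle on the array. In all, 6165 circles met this rule, which is 48.6% of the 12673 position-named circles of that span, 43.9% of the 14043 position-named circles and 20.2% of the 30534 circRNA probes on the array. Another 6508 circles of the same span shared no end and served as the comparison set. Liver came from male C57BL/6J mice aged 20 weeks. Controls were kept on chow for 17 weeks, with no gavage mentioned in the labels. Over the same 17 weeks the high fat diet group was fed a diet in which fat supplied 45% of the kcal, with saline by gavage in the final 5 weeks. The metformin group had that diet too and received metformin by gavage, 3 mg/kg/day, in the final 5 weeks. Each group had 3 arrays, and each array carried RNA pooled from 4 mice after digestion with RNase R, a nuclease that degrades linear RNA.

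A circRNA forms by back-splicing, when a splice donor joins an acceptor that lies upstream of it in the same transcript. One splice site can take part in more than one back-splice. A single donor then closes circles of different length with different acceptors, or a single acceptor with different donors, which is known as alternative back-splicing. The circles that result share one end, overlap along the genome and carry some exons in common, while each keeps a junction of its own. The probe names give positions but no strand, so a shared start or a shared end could not be assigned to a donor or an acceptor. Host genes are not named here, because no annotation of build mm9 was used, and for the same reason the tissue could not be checked against liver markers. Probe sequences were not used here either, so how many bases the probes of end-sharing circles have in common was not measured.

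The arrays correlated with one another at r = 0.973 to 0.993 over the circRNA probes tested. The share of circRNA probes well above background, a flag set by the scanner software, ranged from 76.3% to 89.2% per array. It was lowest in metformin replicate 3, the only array on the second slide, and next lowest in high fat diet replicate 2. Control replicates 1 to 3 and high fat diet replicate 1 lay in column 1 of the first slide, and high fat diet replicates 2 and 3 with metformin replicates 1 and 2 in column 2. In pooled liver RNA, fewer cells of one type and less RNA per cell cannot be told apart.

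Most sharing was between 2 circles. The members used 1712 shared starts and 1715 shared ends, and 2763 of these 3427 positions (80.6%) held exactly 2 circles. A further 526 held 3 circles, 116 held 4, 17 held 5, 3 held 6 and 2 held 7. By position, 2562 members shared their start only, 2506 their end only, and 1097 (17.8%) shared both, each with a different circle. The sharing linked circles into 2332 families, of which 1450 were plain pairs and 24 held 10 or more circles. A complete grid, in which 2 starts and 2 ends were joined in each of the 4 possible ways, occurred 50 times and involved 176 members (2.85%).

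The shared end left the other end free to lie far away. Over the 5292 pairs that shared exactly 1 end, the free ends were a median of 7876.5 bp apart, with a range of 3 to 29768 bp. In 30 pairs the free ends lay within 10 bp of each other, at distances of 3 bp (16 pairs), 4 bp (6), 5 bp (4) or 6 bp (4). Members were longer than circles that shared no end, with a median span of 10751 bp (quartiles 5580 and 18234 bp) against 7827.5 bp (quartiles 3646.75 and 14960.5 bp). At the rule's lower limit the shortest member spanned 1006 bp, and the nearest end-sharing circle outside it spanned 999 bp. The upper limit removed nothing, since the longest position-named circle spanned 29990 bp.

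**Figure D1:**
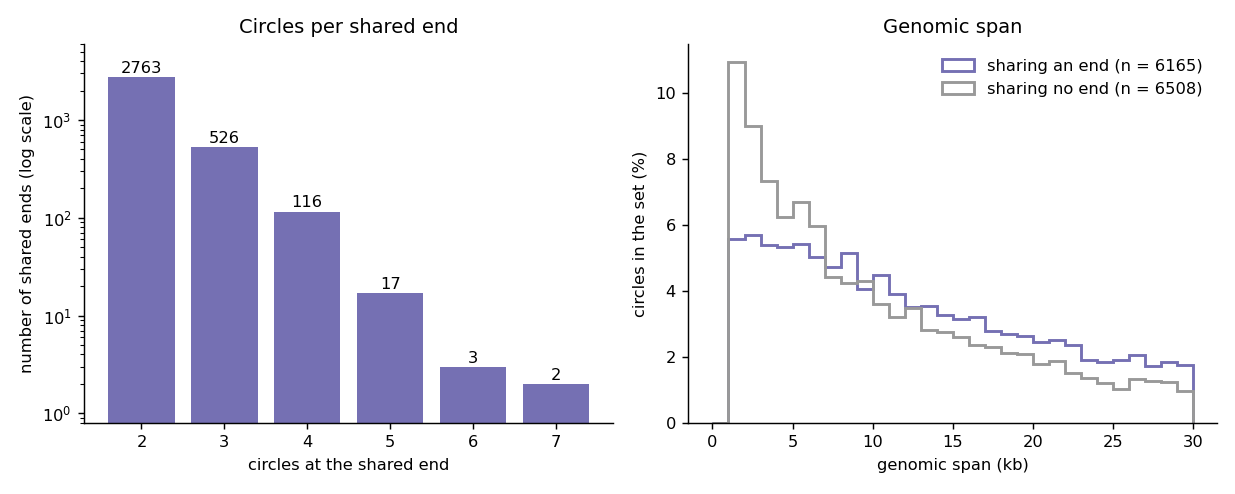
Left, number of shared starts and ends (log scale) by the number of position-named circles at each; 2763 of 3427 held 2 circles. Right, genomic span in kb of the 6165 members and of the 6508 circles of the same span range that shared no end, as a percentage of each set in 1 kb bins; the members have fewer short circles and more long ones, with medians of 10751 and 7827.5 bp.

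End-sharing circles were seen above background more often than the others. On all 9 arrays 4672 members (75.8%) were well above background, compared with 70.7% of the circles that shared no end. On none of the arrays was this so for 503 members (8.16%), against 11.1%. Per array, the share of members above background exceeded that of the other circles by 3.40 to 5.40 percentage points, with a mean of 3.93 ± 0.729 (SD, n = 9 arrays). It was higher on 9 of 9 arrays (exact two-sided test over all 512 sign changes, p = 0.00391, the smallest it can give). The arrays measured one and the same set of circles, so this test covers the spread between arrays and not that between circles. Circles with both ends shared were above background on all 9 arrays in 80.0% of cases, and circles with 1 shared end in 74.9%.

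The share of members above background was 87.5% ± 1.99 (SD, n = 3) for chow, 84.2% ± 4.03 for high fat diet and 85.1% ± 7.29 for metformin. None of these group differences passed an exact permutation test (high fat diet against control p = 0.3, metformin against high fat diet p = 0.8, metformin against control p = 0.8), and 3 arrays against 3 cannot give a p below 0.1. The gap between the median log2 level of members and that of circles sharing no end averaged 0.18 ± 0.01 (control), 0.18 ± 0.06 (high fat diet) and 0.14 ± 0.01 (metformin). For this gap the exact permutation p was 1, 0.4 and 0.1 in the same order.

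In 3592 of the 5292 pairs (67.9%) both circles were well above background on all 9 arrays, and in 182 pairs neither was on any. In 178 pairs (3.36%) one circle was above background on all 9 arrays and its mate on none. The longer circle was the one above background in 85 of these and the shorter in 93. Over all pairs, 76.6% of the longer and 77.7% of the shorter circles were above background on all 9 arrays. Among these 178, the 4 with the brightest circle were picked after their values were seen. At the start chr4:110151070, the 28817 bp circle to 110179887 had log2 levels of 2.62 to 3.40 over the 9 arrays, while the 1265 bp circle to 110152335 had -7.40 to -5.80. At the start chr7:85327433, the 3759 bp circle to 85331192 had 2.51 to 3.09 and the 393 bp circle to 85327826 had -7.37 to -4.69. At the end chr2:70625052, the 29521 bp circle from 70595531 had 2.18 to 2.64 and the 2269 bp circle from 70622783 had -7.03 to -5.40. At the start chr3:28462997, the 13498 bp circle to 28476495 had 1.90 to 2.54 and the 6858 bp circle to 28469855 had -6.82 to -5.95. In this order, the 4 brighter circles had mean levels of 2.94, 2.76, 2.42 and 2.13. The probes paired with them, named with the ending _neg, had 2.80, 1.24, -2.51 and 1.90. Levels here and below are log2 signal relative to each array's 75th percentile. A probe's brightness also depends on its sequence, so levels of different probes are not compared as amounts of RNA, and the second circle of each such pair was not detectable rather than shown to be absent.

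The end shared by the most circles was steady across the arrays. At chr11:106717578, 7 circles of 3817 to 27760 bp, all of them members, were well above background on 9 of 9 arrays. The 17076 bp circle chr11:106700502-106717578 stood at 3.10, 2.96 and 3.26 in controls, at 2.87, 2.95 and 3.18 in the high fat diet group and at 3.13, 3.10 and 3.19 in the metformin group. The dimmest, the 25344 bp circle chr11:106692234-106717578, stood between -0.21 and 0.19. The groups overlapped in both cases. Over the 7 circles the absolute group difference reached at most 0.18 for high fat diet against control, 0.25 between metformin and high fat diet and 0.20 between metformin and control, and the smallest unadjusted limma p among them was 0.057. The SD within a group was at most 0.18.

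The other end with 7 circles, chr2:76719896, varied by array and not by group. The 27452 bp circle chr2:76692444-76719896 had log2 levels of -2.03, -2.68 and -0.55 in controls, -2.30, -2.36 and 2.60 on the high fat diet, and 0.44, -2.84 and -2.63 with metformin. High fat diet replicate 3 was the highest array for each of the 7 circles, by 2.14 to 6.28 above the median of the other 8 arrays. Metformin replicate 1 was 0.77 to 3.89 above the median of the remaining 7 arrays for these circles. The upper values of both ranges come from chr2:76701331-76719896, which was above background on 3 arrays only. A second circle, chr2:76700407-76719896, was above background on 5, so that the differences of these circles are set against levels not well above background. The mean of the 5 circles tested at this end differed by 0.94 ± 0.82 (SE) between high fat diet and control (adjusted p = 0.854, limma with Benjamini-Hochberg adjustment), and the groups overlapped. High levels on high fat diet replicate 3 were not limited to this end. Of the 4923 members tested with a value on all 9 arrays, 10 stood more than 2 above the median of the other arrays on that array. Of these, 5 were circles of the chr2:76719896 end, 3 were circles that started at chr2:76695961 and ended at 76722254, 76722690 or 76725063, and the other two were chr1:39387782-39405369 and chr1:39387782-39395044.

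Likeness to the mean profile of the chr2:76719896 end was measured as Pearson's r over the 9 arrays. Among members outside that end, 4 had r above 0.95. These were chr2:76695961-76722254 (r = 0.997), chr2:76695961-76722690 (r = 0.991), chr2:76695961-76725063 (r = 0.968) and chr2:76700857-76726144 (r = 0.955), all with a start that a circle of the 7 also uses. The profile rests on high fat diet replicate 3 and metformin replicate 1. The probes paired with these circles on the array, which bear the same names with the ending _neg and whose target no source used here gives, were also higher on high fat diet replicate 3, by 0.35 to 3.76 over the 7 circles.

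**Figure D2:**
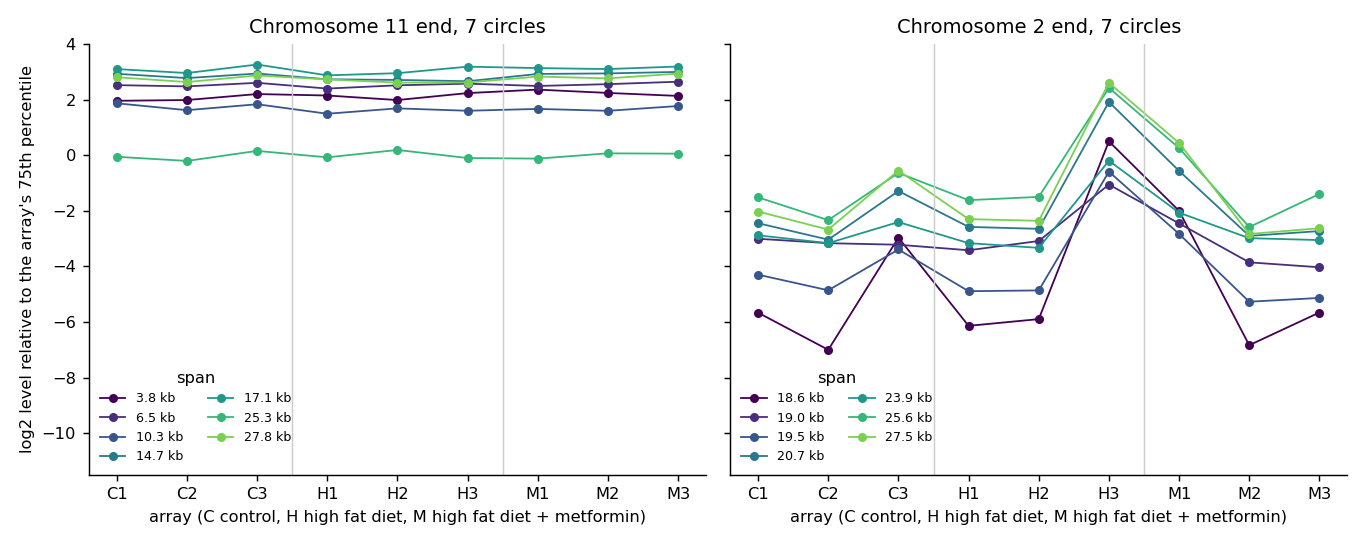
Log2 level relative to the array's 75th percentile on each of the 9 arrays, for the 7 circles that share the end chr11:106717578 (left) and the 7 that share chr2:76719896 (right); each line is 1 circle, labelled by its span, and lines join arrays only to guide the eye. The chromosome 11 circles are level across arrays, while all 7 chromosome 2 circles peak on high fat diet replicate 3.

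The start chr1:161780117, one of 3 positions with 6 circles, came next, and 5 of its circles were members and 4 were tested. The 6 were dim, with mean levels of -5.53 to -3.57. The mean of the 4 tested circles differed by -0.16 ± 0.17 (SE) between high fat diet and control. It differed by 0.08 ± 0.17 between metformin and high fat diet and by -0.08 ± 0.17 between metformin and control. The largest family spanned chr4:126545961-126603267 and joined 10 starts and 9 ends into 19 circles, 17 of them members. Of these, 18 were tested, and their differences ranged from -0.16 to 0.16, from -0.21 to 0.25 and from -0.26 to 0.24 in the same 3 comparisons, with 0 at an unadjusted p under 0.05.

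The first comparison asks whether circles that share an end differ on the high fat diet. Between high fat diet and control, 5226 members were tested and 0 passed an adjusted p of 0.05 (limma; smallest adjusted p = 0.169), as did 0 of the 25777 circRNA probes tested (0%). At an unadjusted p under 0.05 there were 365 members (6.98%), against 7.25% of all circRNA probes tested. Of these, 119 had higher values on the high fat diet (2.28%, against 2.07% of all) and 246 lower ones (4.71%, against 5.18%). The groups did not overlap for 645 members (12.3%, against 12.1%). The median difference was -0.04 over the members and -0.06 over all circRNAs tested, on the log2 scale. The members' shares were thus near those of all circRNAs. The p-values measure the spread between pools, not between single mice. Only high fat diet replicate 1 lay in the slide and column of the controls, so diet and array position can only partly be told apart.

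A pair on chromosome 5 was higher on the high fat diet without passing the test. The 24490 bp circle chr5:17316999-17341489 stood at 0.34, 0.11 and 0.71 in controls, 1.27, 1.17 and 1.55 on the high fat diet, and 0.94, 0.23 and 1.06 with metformin. Its 9419 bp mate, chr5:17316999-17326418, stood at 1.08, 0.85 and 1.31, then 1.62, 1.84 and 1.93, then 1.54, 1.18 and 1.72. For both, each high fat diet array was above each control array, and the metformin arrays overlapped one group or both. The differences were 0.94 ± 0.23 (SE; adjusted p = 0.345) and 0.72 ± 0.18 (adjusted p = 0.354). The _neg partners of both differed the same way, by 0.87 and 1.03, and relative to its partner the longer circle differed by 0.0728 and the shorter by -0.31.

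At the end chr17:57559947, picked for description after its values were seen, 3 circles differed alike. The 1202 bp circle chr17:57558745-57559947 stood at -2.21, -2.68 and -1.57 in controls and at -1.32, -1.21 and -1.03 on the high fat diet, a difference of 0.97 ± 0.23 (adjusted p = 0.323). Its _neg partner differed by 0.88 ± 0.25, and relative to the partner the difference was 0.0876. The circles from 57546257 and 57541328 to the same end differed by 0.66 ± 0.17 and 0.78 ± 0.22. The remaining circle, from 57558311, was above background on none of the arrays. With metformin the 3 detected circles stood between the group means of control and high fat diet.

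On chromosome 3 the mate did not differ to the same degree. The 16068 bp circle chr3:88811064-88827132 stood at -3.17, -4.05 and -3.55 in controls, -2.87, -2.36 and -2.59 on the high fat diet and -2.47, -2.87 and -2.30 with metformin. High fat diet exceeded control by 0.98 ± 0.23 (adjusted p = 0.323), with no overlap between these groups. The circle with the same start and an end at 88830428 differed by 0.04 ± 0.15.

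Lower values on the high fat diet were seen in both detected circles of the start chr7:97153578. The 8413 bp circle chr7:97153578-97161991 stood at 1.59, 2.11 and 1.32 in controls, 0.84, -0.31 and 0.02 on the high fat diet, and 1.08, 0.69 and 0.41 with metformin. The 24159 bp circle chr7:97153578-97177737 stood at 1.19, 1.78 and 0.76, then 0.49, -0.64 and -0.27, then 0.65, 0.37 and 0.06. High fat diet and control did not overlap for either, and the metformin arrays lay below the controls. The differences were -1.49 ± 0.29 (2.81-fold lower, adjusted p = 0.244) and -1.38 ± 0.30 (adjusted p = 0.283), so that the ratio of the 2 circles differed by only 0.11. The _neg partner of the shorter circle was dim (mean level -5.82) and differed by 0.44 ± 0.59. Its sign was opposite to that of its circle, but a value smaller than its SE gives no clear direction.

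At the start chr19:43579012 the 3471 bp member chr19:43579012-43582483 differed by -0.84 ± 0.13 (adjusted p = 0.169), the smallest p among members. Its _neg partner differed by -0.84 ± 0.17, and relative to the partner the difference was 0.00141 ± 0.11. Its mate, which ends at 43579416 and is too short to be a member, differed by -1.21 ± 0.26. At the end chr6:116238186, picked after its values were seen, the 2314 bp circle from 116235872 differed by -0.90 ± 0.19 and the 3428 bp circle from 116234758 by -0.82 ± 0.19. Both were above the high fat diet mean with metformin, by 0.48 ± 0.19 and 0.50 ± 0.19.

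The other circles named for lower values had a mate that differed less, differed the other way or was not tested. The 2460 bp circle chr3:82668323-82670783 stood at -3.94, -3.30 and -2.66 in controls and -4.63, -4.86 and -5.35 on the high fat diet, a difference of -1.65 ± 0.31 (adjusted p = 0.225). It was above background on 3 control arrays, 1 high fat diet array and 2 metformin arrays, and its mate was not tested. The 13369 bp circle chr4:84617035-84630404 stood at -3.06, -3.56 and -3.83 in controls and -4.46, -4.32 and -4.56 on the high fat diet (-0.96 ± 0.20, adjusted p = 0.279). It was above background on 3 control, 1 high fat diet and 2 metformin arrays. Its longer mate, which ends at 84642484, stood on the other side of 0 with a difference of 0.41 ± 0.22. The 22945 bp circle chr2:5260228-5283173 differed by -0.77 ± 0.16 (adjusted p = 0.281), and its mate chr2:5275715-5283173 by -0.26 ± 0.14. The _neg partner of the named circle differed by -0.85 ± 0.24, and relative to it the sign turned (0.0732 ± 0.16).

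Of the 10 circles named for this comparison, 8 were above background on all 9 arrays and for 7 the _neg partner had the same sign. These 10 circles had 13 mates, of which 11 were tested. A mate differed in the same direction as the named circle in 9 of the 11 cases, and in 6 it did so at an unadjusted p under 0.05. This count holds the chr5:17316999 pair under both of its circles, and each tested mate at the end chr17:57559947. The named circles were themselves picked for the smallest p. Over all end-sharing pairs the signs matched in 65.7%, and both circles had an unadjusted p under 0.05 (limma) in 72 of 4152. Of all circRNA probes tested, 7.25% had such a p.

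**Figure D3:**
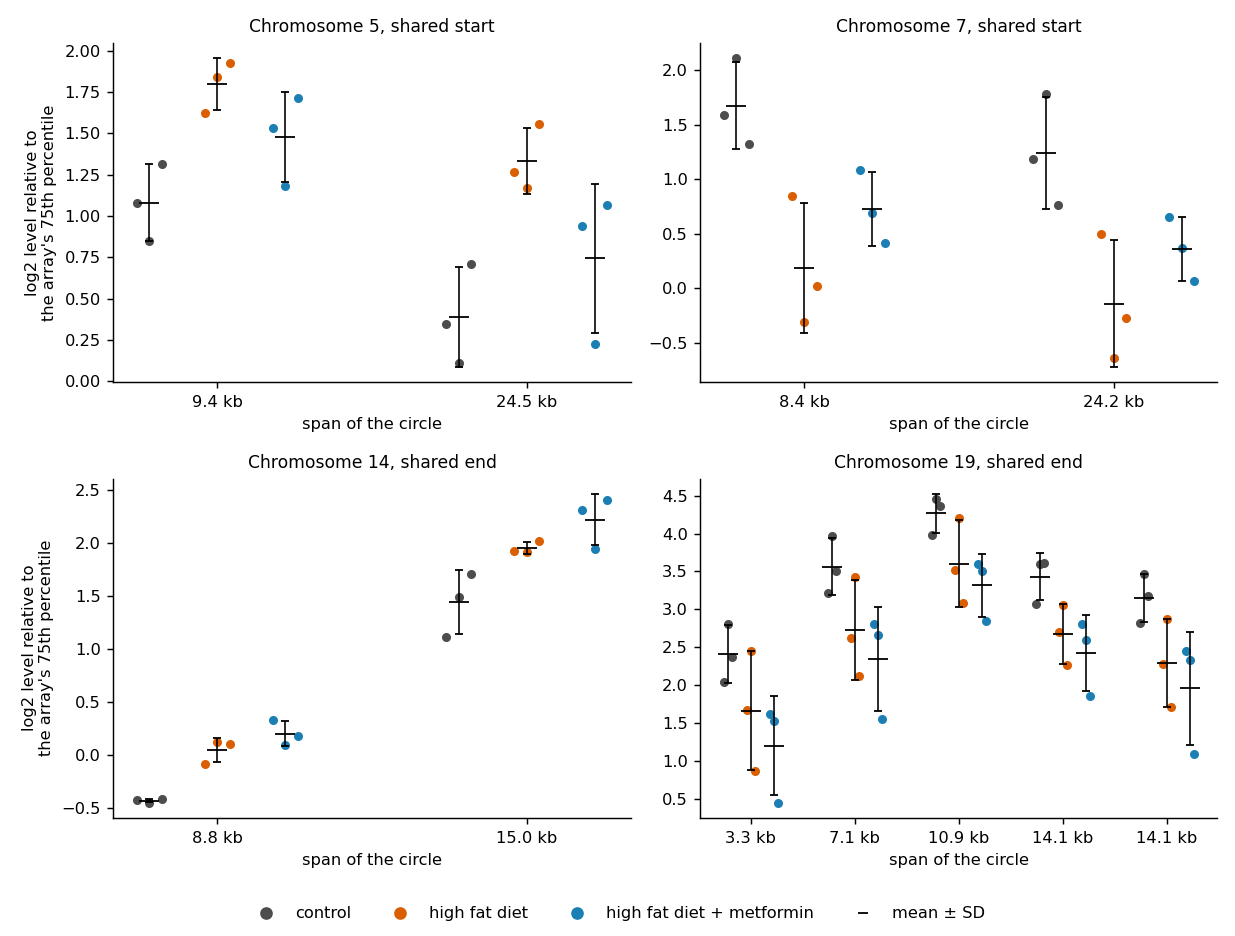
Log2 level relative to the array's 75th percentile for the circles at the starts chr5:17316999 and chr7:97153578 and at the ends chr14:32436160 (2 of its 3 circles) and chr19:40242113, by span; points are arrays (3 per group, coloured by group) and black marks are the mean ± SD. Circles of 1 panel keep the same order of groups, and none of the differences passed an adjusted p of 0.05.

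The second comparison asks whether they differ with metformin on the high fat diet. Of 5235 members tested, 0 passed an adjusted p of 0.05 (limma), as did 0 of 25828 circRNA probes (0%). At an unadjusted p under 0.05 there were 218 members (4.16%, against 3.90% of all), 116 with higher values with metformin (2.22%, against 2.32% of all) and 102 with lower ones (1.95%, against 1.58%). The groups did not overlap for 381 members (7.28%, against 7.45%). The median difference was 0.01 over the members and 0.03 over all circRNAs.

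The smallest p among members belonged to chr17:20492595-20497411, which lacks values on 2 arrays each of the control and high fat diet groups and is described with the shared positions (2.22 ± 0.21, adjusted p = 0.207). Among members with a value on all 9 arrays, the circle with the smallest p was lower with metformin while its mates were not. The 5508 bp circle chr2:70922482-70927990 stood at -3.98, -4.17 and -4.16 in controls, -4.25, -3.95 and -3.88 on the high fat diet, and -4.61, -4.92 and -4.82 with metformin. All metformin arrays lay below the other 6. The difference from the high fat diet was -0.76 ± 0.15 (adjusted p = 0.650) and that from control -0.68 ± 0.15 (adjusted p = 0.538). It was above background on 3 control, 2 high fat diet and 1 metformin arrays. The circle with the same start and an end at 70926559 differed from the high fat diet by 0.30 ± 0.14. The circles with the same end and starts at 70911178 and 70916117 differed by 0.00 ± 0.17 and -0.06 ± 0.18.

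Higher values with metformin were found for the 26590 bp circle chr8:91229125-91255715. It stood at -4.59, -4.77 and -4.59 on the high fat diet and -4.14, -3.92 and -3.66 with metformin (0.75 ± 0.16, adjusted p = 0.756), and was above background on 3 control, 1 high fat diet and 2 metformin arrays. Its mates to 91233895 and 91229778 differed by 0.45 ± 0.16 and 0.22 ± 0.17. The 16886 bp circle chr15:9078732-9095618 differed by 0.75 ± 0.18, and its mate to 9108115 by 0.18 ± 0.16. The 4018 bp circle chr2:5486695-5490713 differed by 0.60 ± 0.16, and its 131 bp mate to 5486826 by 0.61 ± 0.21. Relative to its _neg partner, which was dim (mean level -4.89), the named circle differed by -0.40 ± 0.45. The sign turned, but the value was smaller in size than its SE. The 13021 bp circle chr5:66667754-66680775 (0.74 ± 0.19) and the 9564 bp circle chr2:58470045-58479609 (0.60 ± 0.16) complete the 5 with higher values.

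The others with lower values were chr2:17434593-17451644 (-0.91 ± 0.26), chr9:22228557-22239844 (-0.57 ± 0.16), chrX:9741848-9759178 (-0.48 ± 0.14) and chr11:72536130-72545915 (-0.48 ± 0.13). The first of these was above background on only 2 metformin arrays. The 3 mates of the chromosome 11 circle differed by -0.01, -0.08 and 0.15. Adjusted p-values of the 10 named circles ranged from 0.650 to 0.969. A mate differed in the same direction in 8 of 12 tested cases, and in 2 of these at an unadjusted p under 0.05 (limma). Over all end-sharing pairs the signs matched in 63.4%, and both circles had such a p in 22 of 4165. Of all circRNA probes tested, 3.90% had such a p.

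The third comparison sets metformin on the high fat diet against chow. It shares the control arrays with the first comparison and the metformin arrays with the second. No metformin array lay in the same slide and column as a control array, so group and array position cannot be told apart here. Of 5223 members tested 0 passed (limma), as did 0 of 25763 circRNA probes (0%). At an unadjusted p under 0.05 there were 267 members (5.11%, against 5.07% of all), 85 with higher values (1.63%, against 1.64% of all) and 182 with lower ones (3.48%, against 3.43%). The groups did not overlap for 598 members (11.4%, against 11.2%).

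At the end chr14:32436160 all 3 circles had higher means with metformin than in controls, and none passed the test. The 8770 bp circle chr14:32427390-32436160 stood at -0.43, -0.45 and -0.42 in controls, -0.08, 0.12 and 0.10 on the high fat diet, and 0.33, 0.09 and 0.18 with metformin. The 15007 bp circle chr14:32421153-32436160 stood at 1.12, 1.50 and 1.72, then 1.93, 1.92 and 2.02, then 2.32, 1.95 and 2.41. For both, each control array was below the other 6. The differences from control were 0.63 ± 0.13 (adjusted p = 0.524) and 0.78 ± 0.18 (adjusted p = 0.538), and 0.48 ± 0.21 for the third circle, from 32432158, which was measured on 2 control and 2 metformin arrays. Relative to its _neg partner the longer circle differed by -0.11 and the 8770 bp circle by 0.14.

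At another end on chromosome 14, chr14:36265585, the 8185 bp circle from 36257400 differed by 0.68 ± 0.15 (0.0415 relative to its _neg partner) and its mate from 36263258 by 0.52 ± 0.23. The circle chr3:88811064-88827132, already described for the diet, differed from control by 1.04 ± 0.23 with metformin (adjusted p = 0.538). The 1766 bp circle chr3:108439909-108441675 differed by 0.59 ± 0.14 (0.13 relative to its _neg partner), and its mate was not tested.

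The members named for lower values with metformin than in controls mostly differed more than their mates. They were picked for the smallest p. Over all end-sharing pairs, both circles were lower at an unadjusted p under 0.05 (limma) in 29. The 15950 bp circle chr8:75205823-75221773 differed by -1.16 ± 0.27 (adjusted p = 0.606), and its mates from 75211966 and 75216819 by -0.19 and 0.18. It was above background on 3 control arrays, 1 high fat diet array and 1 metformin array. The circles chr2:120706767-120718952 (-0.76 ± 0.19), chr12:17375115-17386106 (-0.55 ± 0.14) and chr11:86851333-86859376 (-0.60 ± 0.15) had mates that differed by 0.22, -0.21 and -0.05. Each of these 3 circles was above background on only 2 metformin arrays. Relative to their _neg partners they differed by -1.01 ± 0.54, -0.31 ± 0.38 and -0.03 ± 0.25. For the 10 named circles of this comparison a mate had the same sign in 9 of 14 tested cases, against 64.5% over all end-sharing pairs. The circles of the end chr14:32436160 enter these cases under both of its named circles, each time with the same sign.

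An end with 5 circles on chromosome 19 was picked after its values were seen. At chr19:40242113, circles of 3271, 7068, 10900, 14092 and 14104 bp were above background on 9 of 9 arrays. The brightest of these probes, chr19:40231213-40242113, stood at 3.97, 4.46 and 4.36 in controls, 3.52, 4.21 and 3.08 on the high fat diet, and 3.60, 3.51 and 2.84 with metformin. All metformin arrays lay below all controls, while the high fat diet arrays overlapped both. Differences of metformin from control ran from -1.22 to -0.95 over the 5 circles, and differences of high fat diet from control from -0.86 to -0.66. The mean of the 5 differed by -1.11 ± 0.31 (adjusted p = 0.942) and -0.77 ± 0.31 (adjusted p = 0.604). The starts of 2 of these circles, 40228009 and 40228021, lie close together.

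Whether circles that share an end differ unequally was read from the ratio of the longer to the shorter circle on each array, in which array-wide scaling cancels. Of 4149, 4160 and 4145 pair ratios tested in the 3 comparisons, 0 passed an adjusted p of 0.05 in each (limma; 0% of all pairs sharing an end). At an unadjusted p under 0.05 there were 226 for high fat diet against control (5.45%, against 5.46% of all end-sharing pairs and 5.13% of overlapping pairs that shared no end), 229 between metformin and high fat diet (5.50%, against 5.49% and 4.51%) and 255 between metformin and control (6.15%, against 6.13% and 5.95%).

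The start chr6:113054929 carried 3 circles, and the longest differed from both of the others. The 23606 bp circle to 113078535 stood at -1.98, -2.0 and -1.97 in controls, -1.29, -1.08 and -1.43 on the high fat diet, and -1.33, -1.44 and -1.75 with metformin. The 6601 bp circle to 113061530 stood at -2.16, -1.75 and -1.81, then -1.87, -1.91 and -2.36, then -1.95, -2.01 and -2.25. The 1206 bp circle to 113056135 stayed between -1.02 and -0.73 on the 9 arrays. On the high fat diet the longest circle differed from control by 0.71 ± 0.15, with each control array below the other 6. Its ratio to the 6601 bp circle differed by 0.86 ± 0.15 (adjusted p = 0.598) and that to the 1206 bp circle by 0.63 ± 0.13 (adjusted p = 0.648). With each circle set relative to its _neg partner, these ratios differed by 0.19 ± 0.62 and 0.16 ± 0.47. The partner of the longest circle was dim, with a mean level of -6.86, so these values are imprecise.

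At the start chr1:117797507 the ratio of the circle to 117816734 over that to 117811911 was 0.10, 0.26 and 0.00 (log2) in controls, -0.79, -0.44 and -0.89 on the high fat diet, and -0.60, -0.92 and -0.56 with metformin. Both diet groups lay below the controls, by -0.83 ± 0.16 (adjusted p = 0.648) and -0.81 ± 0.16 (adjusted p = 0.549). With each circle set relative to its _neg partner, these differences were -0.99 and -1.74. The longer circle was above background on 6 arrays and the shorter on 8.

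At the start chr8:11781155 the ratio of the circle to 11805323 over that to 11800868 was 1.23, 0.96 and 0.78 in controls and 0.28, 0.26 and 0.43 on the high fat diet, a difference of -0.67 ± 0.13 (adjusted p = 0.648). The shorter circle differed by 0.54 ± 0.14 and the longer by -0.13 ± 0.17.

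For metformin against the high fat diet, the ratio with the smallest p was that of chr2:70922482-70927990 over chr2:70922482-70926559. It was -2.58, -2.40 and -2.29 on the high fat diet and -3.22, -3.49 and -3.76 with metformin, a difference of -1.06 ± 0.17 (adjusted p = 0.296), and all metformin arrays lay below the other 6. The ratio of the circle from 70916117 over that from 70922482, both ending at 70927990, differed by 0.69 ± 0.16 (adjusted p = 0.870). The ratio of chr9:78406818-78426514 over chr9:78418829-78426514 differed by -0.63 ± 0.13, and by 0.90 with each circle set relative to its _neg partner, and that of chr11:62198220-62208730 over chr11:62198220-62203294 by 0.76 ± 0.17 (adjusted p = 0.870 for both). In the chromosome 11 pair it was the shorter circle that differed, by -0.68 ± 0.21, while the longer differed by 0.08 ± 0.16. Both were above background on only 2 metformin arrays. With each circle set relative to its _neg partner, this ratio differed by 1.52 ± 0.50. The partner of the shorter circle was dim, with a mean level of -6.53.

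Circles of a pair stood on opposite sides of 0, both at an unadjusted p under 0.05, in 4 pairs, all for metformin against control. At the end chr2:17451644 the circle from 17434593 stood at -3.08, -3.68 and -3.60 in controls and -4.29, -4.35 and -4.15 with metformin. It was above background on only 2 metformin arrays. Its mate from 17445490 stood at -0.56, -1.0 and -0.33 and at -0.13, 0.06 and -0.15. At the end chr9:108913349 the circle from 108907617 differed by -0.59 and that from 108909329 by 0.52. At the start chr5:121708708 the circle to 121731953 differed by 0.51 and that to 121727842 by -0.40. At the start chr6:84785035 the circle to 84801954 differed by -0.31 and that to 84794137 by 0.31. Their ratios had adjusted p-values of 0.598 to 0.666.

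**Figure D4:**
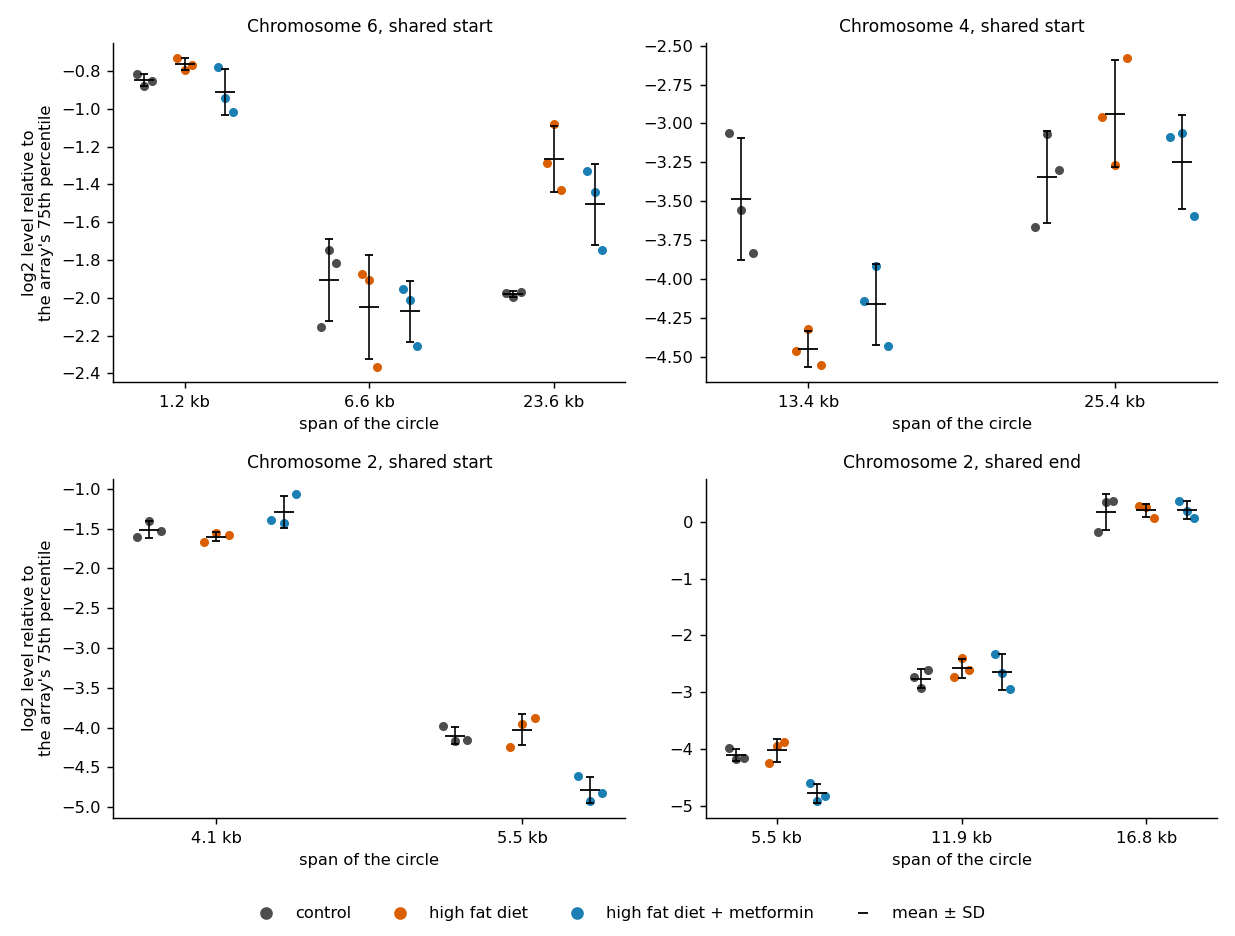
Log2 level relative to the array's 75th percentile for circles that share the start chr6:113054929, the start chr4:84617035, the start chr2:70922482 or the end chr2:70927990, by span; points are arrays (3 per group, coloured by group) and black marks are the mean ± SD. In each panel 1 circle differs between groups by more than its mates do. The mates overlap between groups or differ the other way, except the 1206 bp circle of chromosome 6. That circle differs the same way, by 0.08 between high fat diet and control, without overlap of these groups. None of these ratios passed an adjusted p of 0.05, and the chromosome 2 circle of 5.5 kb appears in both lower panels.

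Whether circles that share an end differ jointly was tested on the mean of the tested circles at each shared position. Of 2733, 2741 and 2727 shared positions, 0 passed an adjusted p of 0.05 in each comparison (limma; 0% of all shared positions). At an unadjusted p under 0.05 there were 211 (7.72%, against 7.69% of all), 108 (3.94%, against 3.96%) and 140 (5.13%, against 5.11%), in the order high fat diet against control, metformin against high fat diet and metformin against control. The smallest adjusted p was that of the start chr19:43579012, whose mean differed by -1.02 ± 0.17 on the high fat diet (adjusted p = 0.0961). The start chr7:97153578, which had a value on all 9 arrays, differed by -1.44 ± 0.28 (adjusted p = 0.164). Relative to the _neg partners these 2 positions differed by -0.16 ± 0.18 and -1.57 ± 0.46.

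The end chr17:20497411 stood between these by p, with a difference of -1.70 ± 0.25 for high fat diet against control (adjusted p = 0.122) and of 1.19 ± 0.21 when metformin was set against it (adjusted p = 0.737). It rests on 1 control and 1 high fat diet array, since spots of the circle from 20492595 were marked as outliers on the other 4 arrays of these groups. The circle from 20492945 was measured on all 9 and differed by -0.55 ± 0.30 and -0.21 ± 0.30. Relative to the _neg partners the mean at this end differed by -1.01 and 0.92. The end chr1:123208902, with 4 circles, differed by -1.02 ± 0.19 between metformin and high fat diet (adjusted p = 0.737) but was measured on 1 control, 2 high fat diet and 2 metformin arrays. The end chr12:87233160 differed by 0.50 ± 0.12 in that comparison. Relative to the _neg partners it differed by -0.0597 ± 0.19, and the end chr1:123208902 by -0.0867 ± 0.13. For metformin against control the positions with the smallest p were the start chr3:88811064 (0.67 ± 0.13, adjusted p = 0.426), the start chr2:128816827 (-0.76 ± 0.17, adjusted p = 0.779) and the end chr14:36265585 (0.60 ± 0.14, adjusted p = 0.942). Relative to the _neg partners they differed by 0.48 ± 0.15, -0.77 ± 0.21 and 0.16 ± 0.19.

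Differences of circles and of their mates were set side by side across all pairs. Over the 4152 pairs with a value for both circles, the high fat diet differences of the longer and the shorter circle correlated at r = 0.528, and 65.7% had the same sign. In the metformin comparisons r was 0.374 (against high fat diet) and 0.399 (against control). Overlapping circles that shared no end gave lower values, with r = 0.404, 0.313 and 0.219 and 61.5% of the same sign for the diet. The difference between these kinds of pair was not tested, since pairs share circles and all pairs share the 9 arrays. Without the circles of the chromosome 2 region around 76719896, r over end-sharing pairs was 0.496, 0.334 and 0.399.

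Where both circles of a pair had an unadjusted p under 0.05 for the diet, which was so for 72 pairs at 63 shared positions, their directions matched in 72 of 72, with 51 lower and 21 higher. With metformin the directions matched in 22 of 22 pairs against the high fat diet and in 35 of 39 against control. In overlapping pairs that shared no end it held for 59 of 59, 16 of 16 and 22 of 25. In the 23 tested pairs whose free ends lay within 10 bp, the differences correlated at 0.605, 0.644 and 0.805. Single members were also set against their _neg partners. Among members with an unadjusted p under 0.05 the sign of the partner matched in 301 of the 364 whose partner had a value (82.7%), 165 of 218 (75.7%) and 198 of 267 (74.2%), in the same order of comparisons. Over all circRNA probes tested the shares were 84.9%, 75.7% and 75.3%. The part of the partner's signal in these results was not tested.

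**Figure D5:**
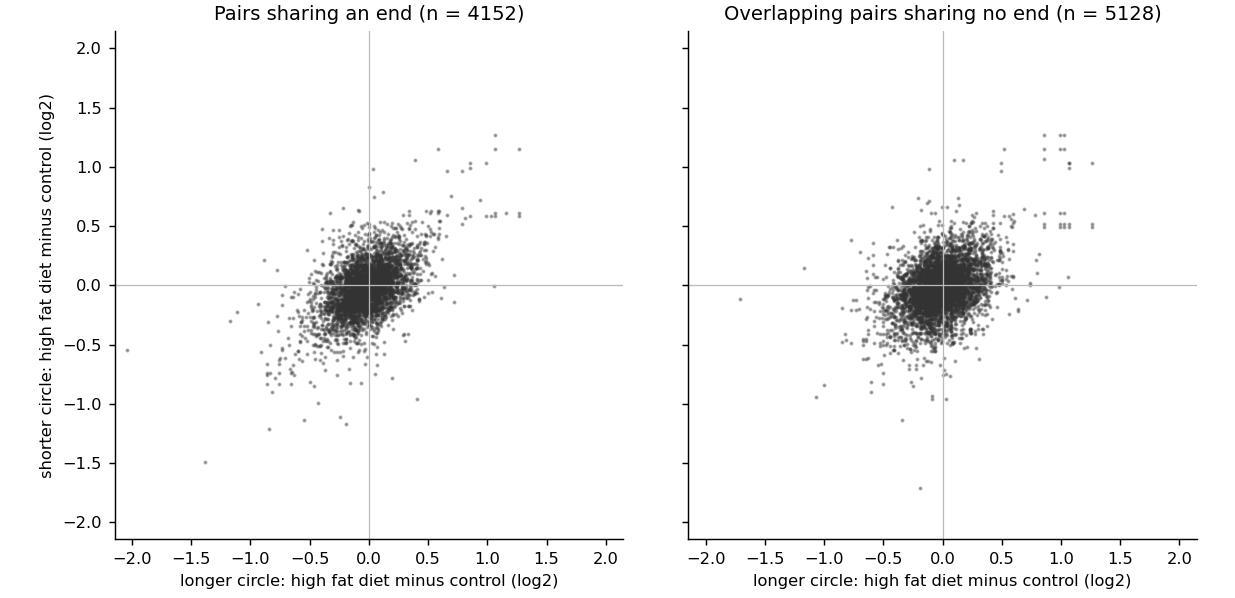
Log2 difference of high fat diet minus control for the longer (horizontal axis) and the shorter circle (vertical axis) of each pair, for 4152 pairs that share an end (left) and for overlapping pairs that share none (right); each point is 1 pair. Points spread along the diagonal in both panels, with r = 0.528 on the left and 0.404 on the right.

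None of the 5 brightest member probes passed the test in a comparison. The 5465 bp circle chr5:141154028-141159493 stood at 5.94 to 6.45 over the 9 arrays, and its differences were 0.07, -0.02 and 0.05 with an SE of 0.158. The 8190 bp circle chr15:93250715-93258905 had a difference of -0.38 ± 0.18 on the high fat diet, where replicate 2 stood at 5.09 and the other 8 arrays at 5.73 to 6.01. Its high fat diet arrays lay below all controls, as they did for chr2:102596064-102607224 (limma adjusted p = 0.698 and 0.720). The metformin arrays lay below all controls for chr2:102596064-102607224 and chr15:79362102-79367975. Of all circRNA probes tested, 12.1% did not overlap between high fat diet and control and 11.2% between metformin and control. The 2193 bp circle chr2:121248185-121250378, the 5873 bp circle chr15:79362102-79367975 and the 11160 bp circle chr2:102596064-102607224 differed by 0.00, -0.24 and -0.27 on the high fat diet. The _neg partners of these 5 probes had mean levels of 6.13, 5.85, 4.39, 4.78 and 4.83.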

How the data were processed

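Liver RNA of 3 groups was hybridised to 9 one-colour circRNA arrays. The authors deposited scanner output made with Agilent Feature Extraction (version 11.5.1.1 per the file headers, 10.7 per the submitters' processing notes), whose processed signal is a background-subtracted intensity, and a table of log2 values per circRNA whose further processing no label or header names. Here, log2 intensity minus each array's 75th percentile over non-control probes was used. Spots marked as outliers were left out, and probes entered the tests when 1 group or more had them well above background on its 3 arrays, as held for 5248 of 6165 members. Array number limits the precision. All circRNA probes, all ratios of pairs sharing exactly 1 end and all means of shared positions were fitted by lmFit and eBayes of limma 3.58.1 (R 4.3.3; 3 groups together), with Benjamini-Hochberg adjustment per comparison and a threshold of 0.05. The fits were tested on simulated data. Named are, per comparison, the 5 higher and 5 lower members, 4 pair ratios and 3 shared positions with the smallest p (members and pairs only where no spot was marked as an outlier on any array), and the 3 positions with the most circles and the 5 brightest members. The members and this rule were chosen with earlier results of these data known. Alternatives were other background corrections, scalings, filters and fits, the partner probe, the deposited log2 values and each array left out.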

Additional observations from a re-analysis of the deposited data

How the results depend on the processing

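Depth in arrays is signal over background: 503 members were above it on no array. Circles above it in 1 group only were tested against signals elsewhere that were not well above background. Calls were few under each setting tried. Against the 0 calls reported for high fat diet minus control, 3 members passed when normexp was combined with scaling to the 75th percentile, 1 with a trended robust fit and 3 with the authors' deposited values, which also gave 3 for metformin minus high fat diet and 3 for metformin minus control. Of these 9 calls on deposited values, all but that of chr19:43579012-43582483 had differences of 7.03 to 12.0 in size where those reported here were between -0.21 and 0.44. In the first of these settings they were chr19:43579012-43582483, chr7:97153578-97161991 and chr7:97153578-97177737. For pair ratios the deposited values gave 1, 2 and 1 calls in the 3 comparisons, and the array column as a covariate gave 2 for metformin minus control. For shared positions and the diet, normexp with 75th percentile scaling gave 2, only probes above background on all 9 arrays 1, the trended robust fit 1 and array weights 1; for metformin minus high fat diet the column covariate and the deposited values gave 1 each. The replicate block gave 5 shared positions for the diet, but the replicate numbers did not pair the arrays (correlations of -0.14 to 0.19 for same-numbered arrays, of which 2 of 9 passed 0.1). Leaving out 1 array gave 0 to 3 shared positions for the diet; 3 came without control replicate 3, 1 without metformin replicate 1 and 2 without metformin replicate 3. It gave 246 to 515 members at an unadjusted p below 0.05 (diet), 142 to 335 for metformin minus high fat diet and 194 to 364 for metformin minus control. The group difference in the members' share above background ran from -5.41 to -1.38, from -1.29 to 5.14 and from -4.64 to 1.79 percentage points, and that in the gap of medians from -0.0261 to 0.0336, from -0.0698 to -0.0101 and from -0.0436 to -0.0322. The diet difference in that gap, 0.00339, became -0.0108 with probes above background on all 9 arrays and -0.00327 with normexp. Set against the partner probe, signs turned (± SE) at chr5:17316999-17326418 (-0.31 ± 0.20), chr19:43579012-43582483 (0.00141 ± 0.11), chr2:5260228-5283173 (0.0732 ± 0.16) and chr2:5486695-5490713 (-0.40 ± 0.45). They also turned at the chr9:78406818-78426514 pair ratio (0.90 ± 0.27), the end chr12:87233160 (-0.0597 ± 0.19) and chr14:32421153-32436160 (-0.11 ± 0.09). With the deposited values they turned at the end chr17:20497411 for metformin minus high fat diet (-0.0522) and at chr14:36257400-36265585 (-1.52). The cause was not tested. Within column 2 of the first slide, an alternative chosen after seeing the data, 0 members, pair ratios or shared positions passed for metformin minus high fat diet.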

Other observations

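Besides the end chr2:76719896, the shared position with the largest spread between pools of one group was the start chr1:39387782. Over 2426 shared positions measured on all 9 arrays, the SD within groups of the mean of the circles had a median of 0.17, and it was 1.85 at this start. The 17587 bp circle to 39405369 stood at -2.02, -3.29 and -2.57 in controls, -3.87, -5.71 and -0.51 on the high fat diet and -1.08, -3.87 and -5.37 with metformin. The 7262 bp circle to 39395044 stood at -3.83, -4.56 and -3.84, then -5.46, -5.54 and -1.73, then -1.61, -5.58 and -4.94. Both circles were highest on high fat diet replicate 3 and metformin replicate 1, apart from their order, and the groups overlapped. The next positions by this spread were the chr2:76719896 end (1.47) and the starts chr2:76695961 (1.30) and chr2:76700857 (0.81). At the start chr10:82759899 (0.68) it was high fat diet replicate 2 that stood apart, with a mean of 0.53 against -1.65 to -1.0 on the other arrays. These positions were picked after their values were seen, and no test was run on them.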
